A study of Mus musculus with 6 samples.

Results

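The chromosome 2 zinc finger cluster examined here was given by 10 mouse symbols: Gm14440, Zfp970 (formerly Gm14420), Gm14405, Gm14288, Gm14325, Gm14326, Gm14391, Gm14399, Gm14434 and Zfp931. They were matched by Entrez identifier to a table of 23725 genes, in which they took up 9 rows, because GENCODE pairs the transcripts of Gm14399 with the identifier that RefSeq names Gm14391 and Gm14399 had no row of its own. The first 4 of these symbols are listed in the paper that reported the data, all as significantly higher with EVs, and the other 5 rows are not. The counts came from 3T3-L1 cells, a mouse fibroblast line, incubated for 24 h with extracellular vesicles (EVs) from MLP29 mouse liver progenitor cells, about 20 µg of EV protein a plate (EV 1, 2 and 4), or with a control preparation isolated in the same way from medium that no cells had conditioned (control 1, 2 and 3). Each of the 6 libraries was 1 plate with its own preparation, and the p-values measure the spread between such plates of 1 cell line. The libraries held 508599 to 665465 counts, far fewer than the number of reads the paper states for the sequencing. The cause of that gap was not tested.

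KRAB zinc finger proteins bind DNA through arrays of zinc fingers joined by conserved linkers, and their KRAB domain recruits Trim28 (KAP1) and, through it, chromatin-modifying enzymes that silence retrotransposons and some genes. The family grew by repeated tandem duplication, so that neighbouring members can be almost identical. Such a cluster lies on distal chromosome 2 of the mouse, and most of its genes carry only a provisional name.

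In the mm10 (GRCm38) coordinates of RefSeq, the 9 rows lay between positions 175185165 and 178078425 of chromosome 2, an interval with 68 RefSeq genes, of which 20 had a row in the table. In GENCODE vM21, Gm14440 (chr2:175275125-175286805) and Zfp970 (chr2:177464733-177478129) are on the plus strand and the other 8 symbols on the minus strand, among them Gm14288 (chr2:175789357-175801093) and Gm14434 (chr2:176473278-176486783). Gm14405 is annotated as an unprocessed pseudogene and the other 9 as protein coding. Apart from Gm14399, no exon of a member overlapped an exon of another gene in or near this interval, on either strand. Gm14399 lies outside the stretch searched in GENCODE, so its overlaps were not determined. The likeness of the members can be seen in a 50-base stretch, annotated as coding in all but Gm14405, that was chosen because no coding stretch of Gm14440 occurs in more other genes (22). Capitals mark the bases that differ from Gm14440.
Gm14440 (chr2:175283637-175283686, plus): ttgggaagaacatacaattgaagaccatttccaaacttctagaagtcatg
Zfp970 (chr2:177473625-177473674, plus): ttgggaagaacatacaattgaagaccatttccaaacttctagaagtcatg
Gm14405 (chr2:176855150-176855199, minus): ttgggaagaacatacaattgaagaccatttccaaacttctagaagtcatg
Gm14288 (chr2:175792476-175792525, minus): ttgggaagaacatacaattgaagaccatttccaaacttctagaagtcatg
Gm14326 (chr2:177948174-177948223, minus): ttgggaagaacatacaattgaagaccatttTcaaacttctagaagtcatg
Gm14399 (chr2:175132933-175132982, minus): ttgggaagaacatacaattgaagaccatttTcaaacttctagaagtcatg
Gm14325 (chr2:177834255-177834304, minus): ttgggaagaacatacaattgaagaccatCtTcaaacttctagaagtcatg
Gm14391 (chr2:175197549-175197598, minus): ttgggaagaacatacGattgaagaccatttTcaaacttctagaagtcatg
Gm14434 (chr2:176475745-176475794, minus): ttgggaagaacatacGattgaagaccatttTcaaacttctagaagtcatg
Zfp931 (chr2:178069559-178069608, minus): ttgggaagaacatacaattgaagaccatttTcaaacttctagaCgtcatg
The 4 listed members carried the same 50 bases, and the unlisted ones differed from them at 1 or 2 positions. As the stretch was picked from a listed member and also occurs in genes that are not members, it does not mark the listed ones.

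The sequence between the fingers was still more widely shared. In Zfp970 a coding stretch at chr2:177475255-177475304 holds the bases that encode the conserved linker TGEKP, marked in capitals.
Zfp970 linker: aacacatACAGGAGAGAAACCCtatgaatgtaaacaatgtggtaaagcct
These 50 bases were found unchanged in 8 other members and in 43 other genes in all. In Gm14440, Gm14405 and Gm14288 they lie in an exon but are not annotated as coding. Zfp931 carried them with 1 difference. In contrast, Zfp970 also has coding sequence found in no other gene, of which the first stretch from its 5′ end, at chr2:177474826-177474875, is shown.
Zfp970 alone: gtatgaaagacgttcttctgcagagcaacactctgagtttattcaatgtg

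To find how much of each member could be told apart, every distinct 50-base sequence of its GENCODE transcripts was looked up in the transcripts of all other genes. The length of 50 bases is that of the reads of the study. All 3304 such sequences of Gm14440 also occurred in Gm14288, and 97.0% of those of Gm14288 occurred in Gm14440. All of Gm14434 was found elsewhere, with 97.9% of its sequences in Gm2026 and 97.8% in Gm14308, genes of the same interval outside the 10 symbols. Gm14405 shared 97.6%, mostly with Gm1980 (94.4%). The shared percentage was 85.4% for Gm14326, 82.3% for Gm14325, 69.8% for Gm14399, 49.5% for Zfp970, 35.8% for Gm14391 and 23.3% for Zfp931. Nearly all of this sharing was with genes of chromosome 2, and Zfp970 had the most outside it, with 2.55% of its sequences. Counts under Gm14440, Gm14288, Gm14405 and Gm14434 are therefore uncertain as measures of a single gene. The same holds to a lesser degree for Gm14326 and Gm14325. How reads that match several places were counted is not stated. The gene models that were counted are not stated either, and they may differ from those of GENCODE. Gm14434, for example, starts at 176470369 in RefSeq and at 176473278 in GENCODE.

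**Figure D1:**
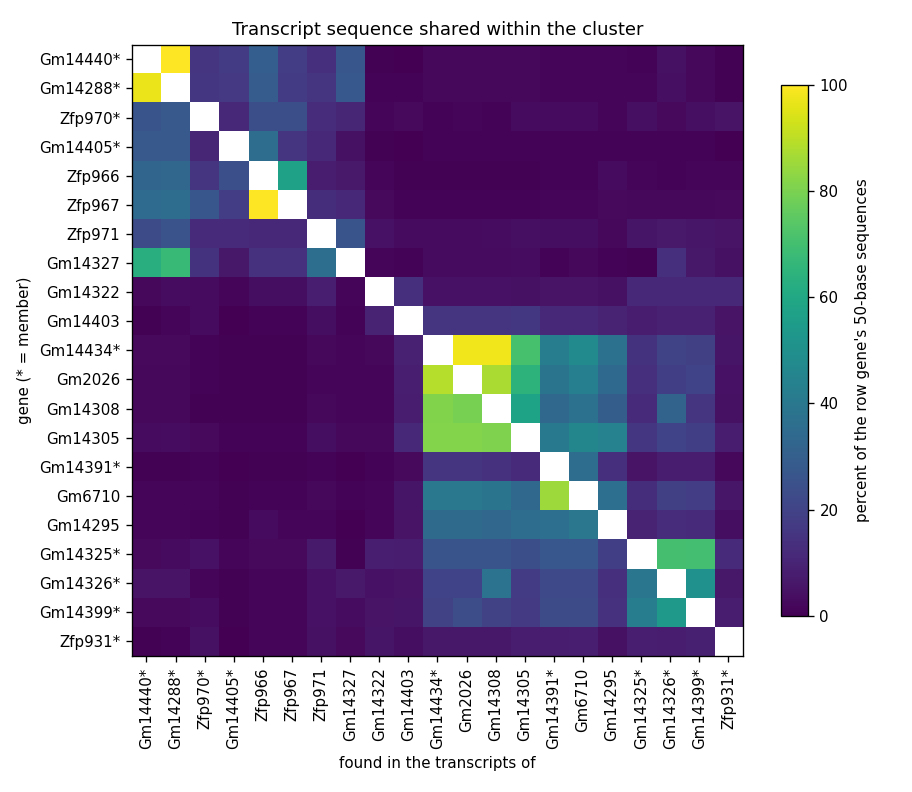
Percentage of the distinct 50-base transcript sequences of each gene (rows) that also occur in another gene (columns), for the 10 members (asterisks) and the other 11 genes of the interval with a row in the table. All of Gm14440 is found in Gm14288, and Gm14434 forms a block with Gm2026 and Gm14308.

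Over the whole table, edgeR's quasi-likelihood test called 22.1% of the 5066 genes tested at an adjusted p of 0.05 (7.68% higher and 14.4% lower with EVs), and the median log2 fold change was 0.01. With libraries scaled to their totals over the genes tested, 90 genes were called higher and 970 lower, against 389 and 732 with TMM. Every fit described as scaled to library totals, or as using total library size, takes these totals. In the cluster, 7 of the 9 rows had enough counts to be tested, and 2 of the 7 were called, Gm14440 among the listed members and Gm14434 among the unlisted ones, both higher with EVs. Of the 7, 4 pointed higher and 3 lower, with a median log2 fold change of 0.21. Gm14391 and Zfp931 were below the filter. In GENCODE, Gm14399 lies outside the RefSeq span of the Gm14391 row, so whether that row counts any of its reads was not tested. Values are given as CPM with TMM factors applied (normalized CPM, a count scaled to library size), and, as these are bulk libraries, fewer cells that express a gene and less RNA per cell cannot be told apart.

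Gm14440, a protein-coding member that is one of the 4 listed, had 269.5, 289 and 309 normalized CPM in control 1, 2 and 3 and 402, 359 and 349 in EV 1, 2 and 4. All EV libraries were above all control libraries. The mean rose from 289 ± 19.9 to 370 ± 27.8 (SD, n = 3 each), a log2 fold change of 0.35 (SE 0.12, 95% interval 0.11 to 0.59, edgeR adjusted p = 0.0298). The call was lost when control 1 (adjusted p = 0.164), control 2 (0.135) or EV 1 (0.0703) was left out, when libraries were scaled to their totals (0.202), with at least 10 counts required in every library (0.103) and with the Wald test of DESeq2 (0.0664), and the direction was higher in all 14 alternatives.

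Gm14434 held the most counts of the cluster and is not among the listed members. Its normalized CPM were 1431, 1366 and 1584 in the controls and 1830.2, 1765 and 1689 with EVs, again without overlap. The mean rose from 1460.1 ± 112 to 1762 ± 70.4 (SD, n = 3 each), with a log2 fold change of 0.27 (SE 0.09, 95% interval 0.09 to 0.45, edgeR adjusted p = 0.0209). This call was lost without control 1 (adjusted p = 0.0947), without control 2 (0.183), with scaling to library totals (0.204) and with at least 10 counts required in every library (0.109), and the direction did not turn in any of the 14 alternatives.

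Among the other listed members, Zfp970 had 473, 416 and 470.1 normalized CPM in the controls and 629.8, 497 and 483 with EVs. The groups did not overlap, but the log2 fold change of 0.24 (SE 0.11, 95% interval 0.02 to 0.46) did not pass the test (edgeR adjusted p = 0.111) and was 0.15 without control 2 or without EV 1. Gm14405, the annotated pseudogene, had 262, 192 and 212 in the controls and 241, 257 and 268 with EVs, so that control 1 lay among the EV values. Its log2 fold change was 0.21 (SE 0.14, 95% interval -0.06 to 0.48, edgeR adjusted p = 0.253), and 0.08 without control 2. Gm14288 had only 9, 33 and 23 counts in the controls and 8, 15 and 20 with EVs, and the groups overlapped. Its log2 fold change was -0.39 (SE 0.32, 95% interval -1.04 to 0.26, edgeR adjusted p = 0.391). That value rested on single libraries: it was -0.0087 without control 2, -0.13 without EV 1, -0.66 without EV 4 and -0.72 without control 1. The paper lists Zfp970, Gm14405 and Gm14288 as higher with EVs, but none of them passed here and Gm14288 pointed lower. Its calls came from DESeq2, not from edgeR. With the DESeq2 Wald test here, no listed member passed (adjusted p = 0.0664 for Gm14440, 0.191 for Zfp970, 0.388 for Gm14405 and 0.64 for Gm14288). The difference between Gm14288 and the other listed members was not tested.

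The unlisted members with low counts pointed the other way. Gm14325 had 40, 53 and 49 counts in the controls and 34, 26 and 34 with EVs, which gave 78.9 ± 6.48 against 61.0 ± 13.5 normalized CPM (SD, n = 3 each) without overlap. Its log2 fold change was -0.39 (SE 0.21, 95% interval -0.82 to 0.04, edgeR adjusted p = 0.178). Gm14326 had 21, 35 and 24 counts against 19, 14 and 15, with overlap in normalized CPM and a log2 fold change of -0.53 (SE 0.28, 95% interval -1.09 to 0.03, edgeR adjusted p = 0.164). Neither passed the test. Without EV 2 the log2 fold change of Gm14325 was -0.18 and that of Gm14326 -0.35, and without control 2 that of Gm14326 was -0.34. The row of Gm14391 had 4, 6 and 10 counts in the controls and 12, 4 and 0 with EVs, and Zfp931 had 2, 6 and 2 against 0, 4 and 1, which allows no statement on a difference at this depth. Over the 7 tested rows, the groups did not overlap for Gm14440, Zfp970, Gm14434 and Gm14325, 3 of them with EVs higher, while over all genes tested the groups did not overlap for 39.4% (17.9% with EVs higher and 21.5% lower).

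**Figure D2:**
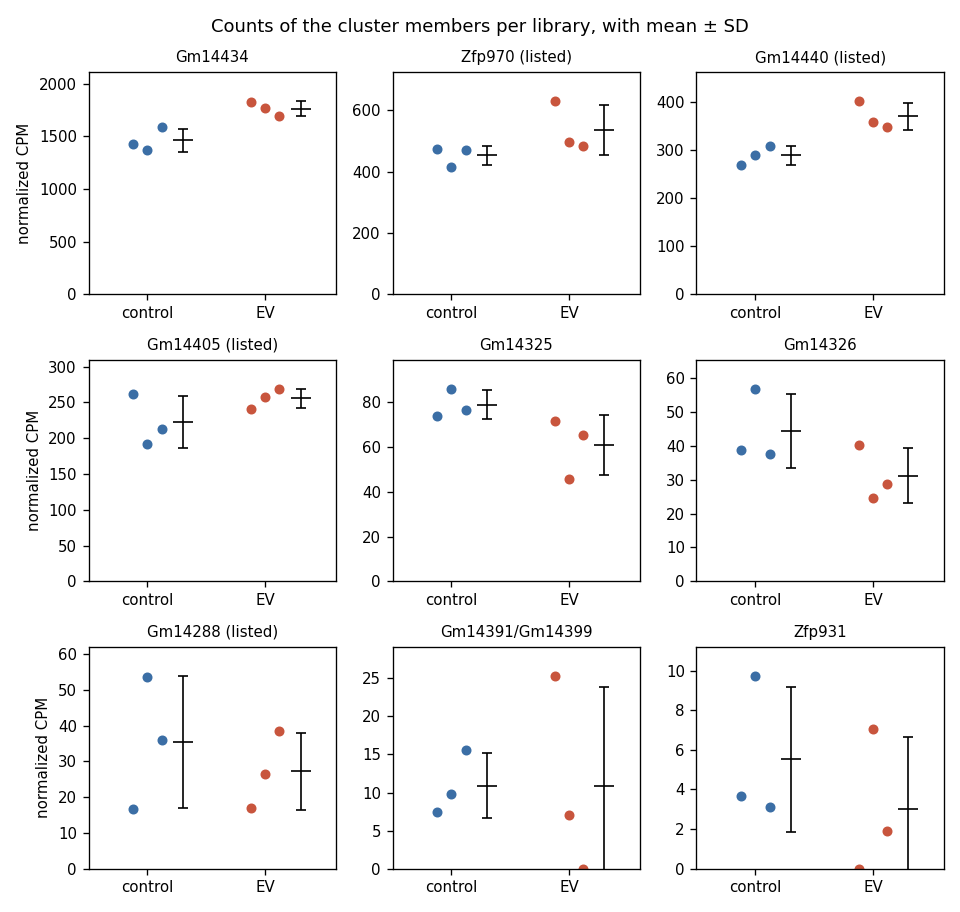
Normalized CPM of the 9 rows in each library (points) with the mean and SD of each group (n = 3) beside them, ordered by summed count; every axis starts at 0, and error bars that would pass below 0 end there. The EV points of Gm14434, Zfp970 and Gm14440 lie above all control points, and those of Gm14325 below them.

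Divided by exon length in GENCODE, Gm14434 had the highest level, with 526 normalized CPM per kb in the controls and 635 with EVs. The gene models that were counted may have other exon lengths, so the order given here holds for GENCODE lengths only. Zfp970 followed with 209 and 247, then Gm14405 with 95.3 and 109.7 and Gm14440 with 85.6 and 109. Gm14405 and Gm14440 did not differ beyond the spread of Gm14405 between libraries. Gm14325 reached 48.8 and 37.7, Gm14326 15.5 and 10.9 and Gm14288 10.3 and 7.92, while Zfp931 and the row of Gm14391 stayed below 3 in both groups. Gm14440 and Gm14288, which share nearly all of their transcript sequence, were thus far apart in counts. Whether that reflects their expression or how shared reads were assigned was not tested. Gm14288 held 5.81%, 15.6% and 10.4% of the counts of the pair in control 1, 2 and 3 and 4.04%, 6.85% and 9.90% in EV 1, 2 and 4. The Clopper-Pearson 95% intervals of control 2 (11.02 to 21.3%) and EV 1 (1.76 to 7.81%) did not meet, nor did those of control 2 and control 1 (2.69 to 10.7%), so that controls differed among themselves and the groups overlapped. These intervals cover counting error only.

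To set the listed paralogs against the unlisted ones and the whole cluster, the normalized CPM of the rows were summed in each library, without a test. The 9 rows summed to 2575, 2480 and 2744 in the controls and 3257, 2989 and 2924 with EVs, 2599.7 ± 134 against 3057 ± 176 (SD, n = 3 each), a ratio of 1.18 and a log2 ratio of 0.23. The listed members went from 1000 ± 42.4 to 1189 ± 86.4 (log2 ratio 0.25), and the unlisted rows from 1599.8 ± 102 to 1868 ± 92.4 (log2 ratio 0.22). In each of these sums the EV libraries were above the controls without overlap. As a percentage of all library counts, the unlisted rows overlapped. They were at 0.156, 0.154 and 0.165% in the controls and 0.183, 0.167 and 0.163% with EVs. The listed rows and the 9 rows did not overlap on that measure. With libraries scaled to their totals over all rows, the log2 ratio of the 9-row sum was 0.12. In the fit scaled to totals over the genes tested, the median log2 fold change of all genes moved from 0.01 to -0.12. The TMM factors were 1.01 to 1.07 in the controls and 0.94 to 0.97 with EVs, so the scaling moved with the treatment, and its part in the result was not tested.

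The share of listed members within the cluster does not depend on that scaling. They held 39.6%, 38.4% and 37.5% of the member counts in the controls and 39.6%, 38.1% and 39.0% with EVs, so the groups overlapped. The means were 38.5% ± 1.10 and 38.9% ± 0.73 (SD, n = 3 each), a difference of 0.40 percentage points. Gm14434 alone held 55.1 to 59.0% of the member counts. With Gm14434 set aside, the listed members held 89.2%, 85.4% and 88.6% in the controls and 90.4%, 93.1% and 92.2% with EVs, without overlap and with a difference of 4.18 points. That separation depends on leaving out the only unlisted row called higher in these data, and the unlisted rows left had low counts. It is therefore no measure of listed against unlisted members. The sum of the 8 remaining rows had a log2 ratio of 0.18.

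**Figure D3:**
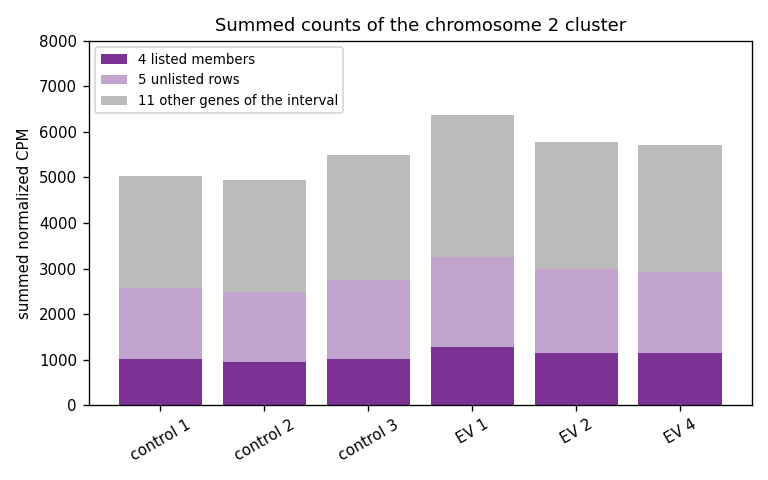
Summed normalized CPM in each library for the 4 listed members, the 5 unlisted rows and the 11 other genes of the interval, stacked from 0. The sum of the listed rows and that of the unlisted rows were each higher in the 3 EV libraries than in the 3 controls. Gm14434 makes up most of the unlisted sum, and not every row was higher.

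Beyond the members, 11 other genes of the interval had a row, and 10 of them were tested. With EVs, 2 were called higher and 1 lower (30%, against 22.1% of all genes), and their median log2 fold change was 0.17. Gm14308 had 685, 657 and 726 normalized CPM in the controls and 892, 823 and 821 with EVs, without overlap, and rose with a log2 fold change of 0.29 (SE 0.10, edgeR adjusted p = 0.0242). Gm14327 rose by 0.40 (SE 0.15, edgeR adjusted p = 0.0405), and Gm6710 fell, with a log2 fold change of -0.61 (SE 0.23, edgeR adjusted p = 0.0488) although its groups overlapped. Calls for these 3 genes were lost in 4 (Gm14308) or 8 (Gm14327 and Gm6710) of 14 alternatives, including the fits without control 1 and without control 2, in which none of the 10 was called. Gm2026 had the second highest count of the whole interval, with 836, 854 and 987 normalized CPM against 1124, 1001 and 1009, and did not pass the test (log2 fold change 0.22, SE 0.10, edgeR adjusted p = 0.0811). Its groups did not overlap either, and it passed without control 3 (0.27, edgeR adjusted p = 0.0321).

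**Figure D4:**
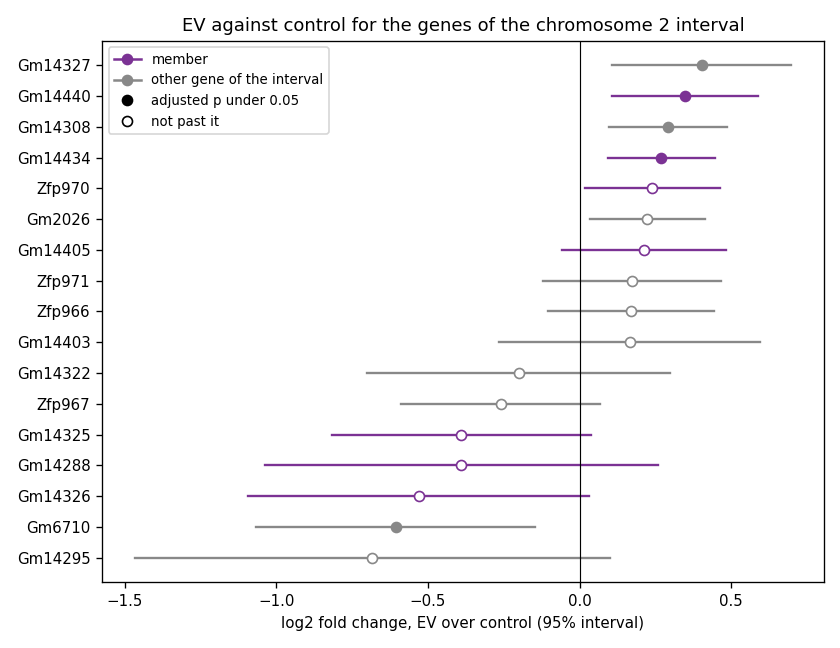
Log2 fold change of EV over control with its 95% interval from edgeR for the 7 members (purple) and 10 other genes (grey) of the interval that were tested; filled points passed an adjusted p of 0.05. Gm14440 and Gm14434 are the 2 members with filled points, and both lie above 0.

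Gm14434, Gm2026 and Gm14308, which share most of their transcript sequence, kept their proportions. Of the counts of these 3 genes together, Gm14434 held 47.5 to 49.2% over the 6 libraries, Gm2026 27.9 to 29.9% and Gm14308 22.0 to 23.3%, and for each gene the groups overlapped. The counting intervals of each gene overlapped between all libraries. The 3 genes summed to 3042 ± 224 normalized CPM in the controls and 3651 ± 173 with EVs (SD, n = 3 each), a log2 ratio of 0.26. Gm14440 held 15.9 to 18.0% of the counts of Gm14440 and Gm14434, the 2 members called, with overlap between the groups. As both were called higher in these data, a similar share in both groups follows largely from that choice. Whether the 3 rows of the Gm14434 block count separate transcripts or divide the same reads was not tested.

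**Figure D5:**
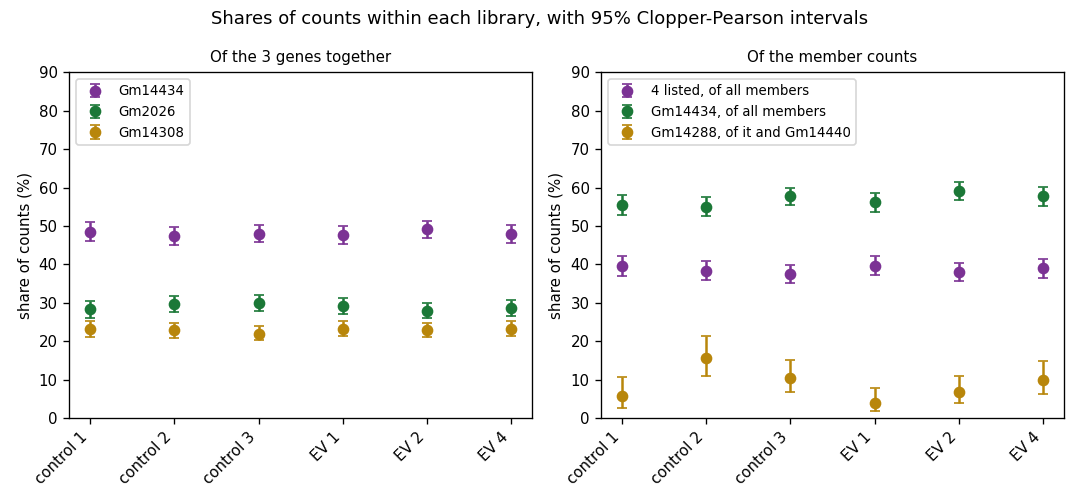
Share of counts in each library with its 95% Clopper-Pearson interval, for Gm14434, Gm2026 and Gm14308 within their own sum (left), and for the 4 listed members, Gm14434 and Gm14288 within the sums named in the legend (right). The shares on the left stay within 47.5 to 49.2%, 27.9 to 29.9% and 22.0 to 23.3%, while the share of Gm14288 varies from 4.04 to 15.6%.

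The members were also alike at their transcription starts. RefSeq promoters (GRCm38.p6, from 250 bases before to 50 after the start) were matched for 8 of the 10 symbols, and their identity to the promoter of Gm14440 was 94.5 to 100%, with 100% over 299 aligned bases for Gm14288, 99.6% for Zfp970 and 94.6% for Gm14434. The promoters of both called members are shown, with the motif CCAAT and its reverse complement ATTGG in capitals.
Gm14440 promoter (chr2:175274875-175275174, plus): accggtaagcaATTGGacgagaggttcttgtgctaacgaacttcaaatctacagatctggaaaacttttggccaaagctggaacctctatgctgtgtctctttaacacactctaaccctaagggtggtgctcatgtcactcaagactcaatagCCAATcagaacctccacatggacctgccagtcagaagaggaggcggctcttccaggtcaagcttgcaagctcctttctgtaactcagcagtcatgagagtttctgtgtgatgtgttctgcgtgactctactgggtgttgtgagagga
Gm14434 promoter (chr2:176486700-176486999, minus): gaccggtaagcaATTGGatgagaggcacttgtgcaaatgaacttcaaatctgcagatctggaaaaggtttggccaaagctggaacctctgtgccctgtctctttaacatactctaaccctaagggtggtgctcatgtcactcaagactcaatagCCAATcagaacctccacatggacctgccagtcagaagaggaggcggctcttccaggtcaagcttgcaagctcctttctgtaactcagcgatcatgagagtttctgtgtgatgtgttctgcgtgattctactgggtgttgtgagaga
CCAAT occurred on either strand in 8 of 8 member promoters and in 37.4% of the 32851 RefSeq promoters of this length. As the 8 are copies of one sequence, they are not independent.

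For the pathway in which KRAB zinc finger proteins act, 36 genes for KRAB corepressors and their partners were examined, of which 28 were tested. One passed as higher and 9 as lower with EVs (10 of 28, 35.7%, against 22.1% of all genes), with a median log2 fold change of -0.46. Trim28, the corepressor that binds the KRAB domain, had 15, 17 and 20 counts in the controls and 4, 8 and 11 with EVs, and fell with a log2 fold change of -0.96 (SE 0.36, edgeR adjusted p = 0.0447). Setdb1, the H3K9 methyltransferase that Trim28 recruits, had 26, 33 and 28 counts against 27, 21 and 33 and a log2 fold change of 0.10 (SE 0.25, edgeR adjusted p = 0.797). Among the other genes that fell were Cbx3 (HP1 gamma, -0.83), the NuRD subunits Chd3 (-0.67), Chd4 (-0.52), Hdac1 (-0.71) and Mta1 (-1.21), the maintenance methyltransferase Dnmt1 (-0.71) and Morc3 (-1.16), all as log2 fold changes. Fam208a, which encodes the HUSH complex subunit TASOR, had 257, 328 and 291 normalized CPM in the controls and 385, 389 and 391 with EVs and rose with a log2 fold change of 0.41 (SE 0.12, edgeR adjusted p = 0.0108). The count of called genes fell from 10 to 3 without EV 1, 4 without control 1, and 5 each without control 2 or EV 2. As the strand that was counted is not stated, these are changes in counts under each gene, which may not be changes in its mRNA.

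Markers and strand were checked for what the counts stand for. Of 10 fibroblast markers, 9 were tested and all pointed lower with EVs (6 called, median log2 fold change -1.08), among them Col1a1 with 154 to 233 counts in the controls and 53 to 91 with EVs, Col1a2, Col3a1, Vim, Fn1 and S100a4; Thy1, Pdgfra and Pdgfrb did not pass, and Lum was at 0 in every library. Of 9 markers of liver progenitor or epithelial cells, Afp, Alb, Krt8, Krt18, Krt19, Epcam and Hnf4a were at 0 in all 6 libraries, Cdh1 had 0 or 1 count and Sox9 had 9 to 13. The kit marks strand, and the strand setting of the counting is not stated. Ppib, an abundant cyclophilin gene, had 2 to 36 counts, while Snx22, whose exons it overlaps on the opposite strand, had 5102 to 7724. Actb, a cytoskeletal gene that is abundant in most cells, had 36 to 162. A count under any gene, whether cluster member, corepressor or marker, may thus not measure its mRNA, and whether the reads came from the sense or the antisense strand was not tested.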

How the data were processed

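RNA-seq libraries (TruSeq Stranded mRNA) of 6 plates of 3T3-L1 cells were analysed. Per the methods, quality was examined in FastQC and STAR mapped the reads on mm10; the authors deposited raw counts per gene from Rsubread, not normalized; tool versions, annotation, strand setting and treatment of multiply matching reads are not given in the sources used here. The quasi-likelihood model of edgeR 4.0.16 (R 4.3.3) was fitted without covariates to genes kept by filterByExpr, after TMM scaling, with Benjamini-Hochberg adjustment over 5066 genes and a threshold of 0.05. DESeq2 1.42.0 was an alternative. The fit was tested on simulated data. Replicate libraries differed by more than sampling noise (chi-square per degree of freedom 1.15 to 1.76). Symbols came from RefSeq (GRCm38.p6; 99.8% of rows), and exons and transcripts from GENCODE vM21, with no genome sequence. Named were all members, genes of the interval that were called or had the 5 highest summed counts among them, called corepressors (1 is not reported here) with Trim28 and Setdb1, the genes sharing most sequence with a member, cell type markers, and Ppib with Snx22. Members and lists were chosen with earlier results of these data known. Sums and shares carry no test.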

Additional observations from a re-analysis of the deposited data

How the results depend on the processing

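The 7 members tested kept the direction of their log2 fold changes in every alternative run, but not their size (with 1 library left out, Gm14288 -0.72 to -0.0087, Gm14405 0.08 to 0.31, Zfp970 0.15 to 0.35, Gm14325 -0.48 to -0.18 and Gm14326 -0.70 to -0.34; with total library size, Zfp970 0.10 and Gm14405 0.07). That of Gm14440 was no longer past the threshold with total library size (0.21), DESeq2 Wald (0.37) and at least 10 counts in every library (0.26), and ranged from 0.28 to 0.43 with 1 library left out. That of Gm14434 was no longer past it with total library size (0.13) and at least 10 counts (0.19), and ranged from 0.19 to 0.34 with 1 library left out. Members called numbered 0 with total library size, 1 with DESeq2 Wald, 0 with at least 10 counts, and 0 to 2 with 1 library left out. Genes called over the table numbered 539 with DESeq2 Wald, 632 with at least 10 counts and 489 to 1215 with 1 library left out (489 without control 2, 732 without control 1). Of the other interval genes, 1 was called with each of total library size, DESeq2 Wald, no low-count filter and at least 10 counts, and 0 to 4 with 1 library left out. KRAB corepressors called numbered 3 with DESeq2 Wald, 4 with no filter, 6 with at least 10 counts and 3 to 8 with 1 library left out. Other zinc finger genes of the genome called numbered 2 with DESeq2 Wald, 2 with at least 10 counts and 2 to 8 with 1 library left out. The summed member level had a log2 ratio of 0.12 with total library size, here over all rows. The difference in listed share was 4.18 points without Gm14434. Among genes not called, the log2 fold change turned positive for Zfp967 without EV 2 (range with 1 library left out -0.42 to 0.0084) and for Gm14322 without control 1 (0.067), without EV 4 (range -0.52 to 0.11) and in the fit with the replicate block (0.054). The median of all genes moved to -0.13 with no filter. Only numbers 1 and 2 are shared by the groups, and their deviations were weakly correlated (r = 0.0714 and 0.0634), so the numbers were not taken to pair the samples; with the replicate block, 2 members were called, Gm14440 (0.44, adjusted p = 0.0221) and Gm14434 (0.36, adjusted p = 0.00725), as were 4 other interval genes, now with Gm2026 (0.33, adjusted p = 0.0287), and 1119 genes were called over the table. The cause of these changes was not tested. Low counts limit Gm14288, Gm14326, Gm14391 and Zfp931 most.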

Other observations

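Zinc finger genes outside the chromosome 2 interval, taken as rows whose symbols start with Zfp, Zkscan or Zscan, were mostly too low to test, with 89 of 408 rows tested. Of the 89, 4 were called higher and 2 lower with EVs (6.74%, against 22.1% of all genes tested), and 66 pointed higher, with a median log2 fold change of 0.14. The 7 members tested had a median of 0.21 and the 10 other genes of the interval a median of 0.17.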
